A study of Mus musculus with 6 samples.

Results

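The endothelin and prostacyclin axis was described here through 10 genes, found by their symbols among the 53647 features of the count matrices: Edn1, Edn3, Ece1, Ednra, Ednrb, Ptgis, Ptgir, Ptgs1, Ptgs2 and Tbxa2r. The rule takes the genes by name and uses no measured value. Each of the 10 symbols was present once in every library.

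The data are single cell RNA sequencing counts of the proximal pulmonary artery (PA) of C57BL/6J mice, in 6 libraries that the labels list as separate samples. The labels do not tie animals to libraries. The study lists individual mice whose ages match those of the libraries, and p-values measure the spread between these libraries. There were 2 young libraries, both of 3 months (young 1 and young 2, the latter marked as female in its title), and 4 old libraries, of 20 months (old 1), 24 months (old 2), 28 months (old 3, marked female) and 27 months (old 4, marked male). No treatment is labelled. The main PAs were excised with the tissue around them and digested with collagenase and elastase, so cells of the airway, pleura and blood could enter the libraries.

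Endothelins are small peptides that are made as long precursors and cut to their active form by endothelin converting enzyme. They act on smooth muscle through receptor A, which drives contraction and growth, while receptor B on endothelium releases dilators and clears the peptide. Prostacyclin is made from arachidonic acid by a cyclooxygenase followed by prostacyclin synthase, and relaxes vessels through its own receptor, against the contraction that thromboxane drives through another receptor. Drugs for pulmonary arterial hypertension block the endothelin receptors or replace prostacyclin.

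A total of 15622 barcodes with at least 500 unique molecular identifiers (UMIs), at least 300 genes and at most 20% mitochondrial UMIs were kept, 935 to 4067 per library. The libraries differed in depth: total UMIs ranged from 6355125 to 50436562 and the median UMIs per kept cell from 801.5 to 8150, and old 3 and old 4 were the deepest. Barcodes under 100 UMIs held 54.3% and 57.7% of all UMIs in young 1 and young 2. In old 1 to old 4 they held 43.5%, 38.3%, 2.28% and 10.5%. Kept cells held 30.7% and 24.3% in young 1 and young 2, and 49.3%, 26.8%, 47.9% and 86.4% in old 1 to old 4. Young 1, young 2 and old 2 shared 131, 156 and 215 cell barcodes pair by pair, whereas no other pair shared more than 4, and most cells with a shared barcode were airway epithelial-like. These 3 libraries were also shallow, so depth, the share of UMIs outside kept cells, this set of libraries and age group could not be fully told apart. Clusters were named from marker lists as endothelial cell (EC)-like, lymphatic EC-like, smooth muscle cell (SMC)-like, fibroblast (FB)-like, macrophage (MΦ)-like and so on. The 10 genes and their pathway lists were kept out of the clustering. Levels below are counts per 1000000 UMIs (CPM) of the summed cells of 1 class in 1 library, given where a library held at least 10 such cells. They are 3′ counts with no correction for transcript length. Levels of the 10 genes were compared within a gene, not between genes. The most abundant genes of the pathway lists were picked by CPM between genes, as descriptions only.

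SMC-like cells were few in the young libraries, with 25 cells in young 1 and 36 in young 2, against 954 in old 3 and 2346 in old 4, and the young SMC-like cells held 47051 UMIs in all. The 11 SMC-like cells of old 2 went against their label: the markers of airway epithelial cells summed to 234586 CPM in them, against 129 to 2563 CPM in the other smooth muscle sums, and 6 of 8 smooth muscle markers summed to 6017 CPM, against 27468 to 47986 CPM elsewhere. SMC-like values that include old 2 are therefore given without it too where they move. Age groups also sat in different clusters of a class. Of the EC-like cells, 141 of the young were in the cluster led by Vcam1 and Icam1 and 4 in the one led by Fabp4 and Gpihbp1, while the one led by Ptprb and Vwf held 771 old and 0 young cells. Of the FB-like cells, 115 of the young were in the cluster led by Lum and Cxcl1 and 5 in the one led by Opcml and Clec3b, which held 972 old cells. Of the SMC-like cells, 58 of the young were in cluster 13, with 432 old ones. The clusters led by Myocd and Carmn held 1988 and 1042 old cells, and 2 and 1 young ones. Cluster 13 had 50% of the smooth muscle markers raised, with cardiomyocyte markers next at 28.6%. Its leading genes included mt-Ta, mt-Ts2 and Tnnt2, and its cells held a median of 0.417 times their library's median UMIs. Comparisons of ages within these classes carry this difference of clusters, and its part was not tested.

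The 10 genes led in different cell classes. By mean CPM over libraries, Edn1 and Ece1 were highest in EC-like cells and Ednrb in MΦ-like and lymphatic EC-like cells. Ptgis led in SMC-like and mesothelial-like cells, Ptgs2 in FB-like cells and Ednra and Tbxa2r in SMC-like cells. Edn3 and Ptgir were near or below detection. The SMC-like means of Ednra and Tbxa2r include young values from 2 and 8 UMIs. In old 3 and old 4, though not in old 1, Tbxa2r was higher in lymphatic EC-like than in SMC-like cells. Ednra was higher in FB-like than in SMC-like cells in old 2 and old 4, and lower in the other libraries. The orders of classes are descriptions and were not tested.

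**Figure D1:**
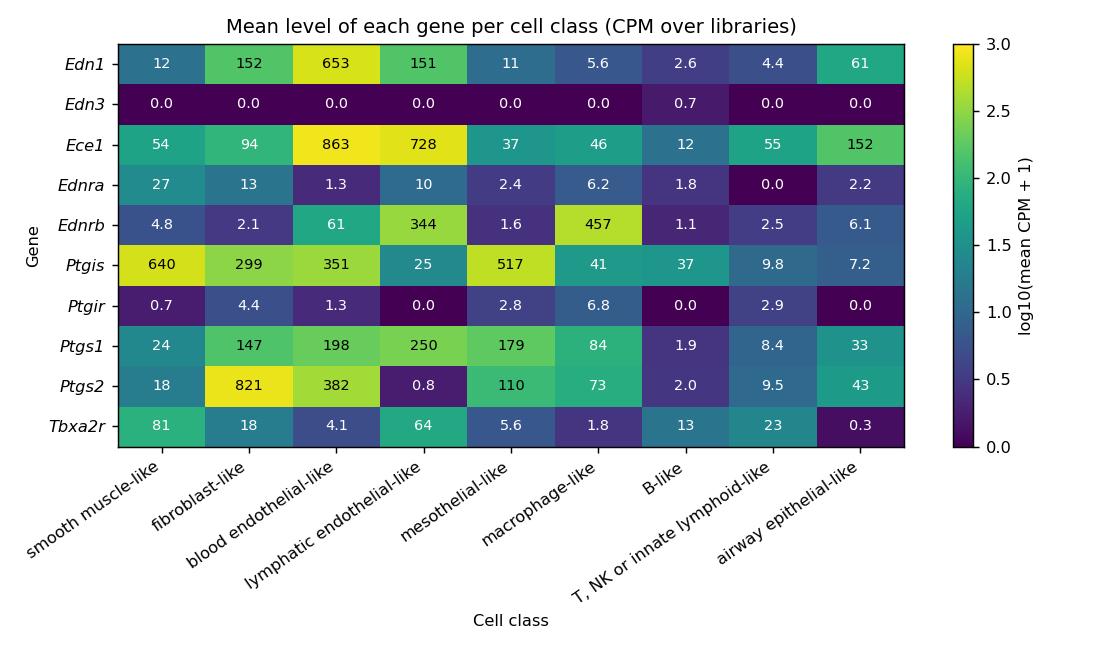
Mean CPM over libraries of each gene (rows) in 9 cell classes (columns), written in each cell and coloured by log10(mean CPM + 1). Edn1 reaches 653 in blood EC-like cells, Ednrb 457 in MΦ-like cells, Ptgis 640.4 in SMC-like cells and Ptgs2 821 in FB-like cells, whereas Ptgir stays at 6.76 or less in all 9 classes.

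Edn1 encodes the precursor of endothelin-1, the main endothelin of vessels. In EC-like cells its level was 525 CPM in young 1 and 593 CPM in young 2. In the old libraries it was 1264 CPM in old 1, 889 CPM in old 2, 141 CPM in old 3 and 503 CPM in old 4. The old libraries thus spanned both sides of the young pair. The means were 559 ± 47.9 CPM (SD, n = 2) in young and 699 ± 485 CPM (SD, n = 4) in old, and the log2 fold change of old against young was 0.44 ± 0.76 (SE, adjusted p = 0.964, edgeR quasi-likelihood test). After every cell was thinned to 500 UMIs, a mean of 17.5% of EC-like cells held an Edn1 UMI (27.7% with all UMIs), against 0.0729% of B-like cells at the same depth (0.794% with all UMIs). No kept cell lay under 500 UMIs, so none was lost to the thinning.

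The promoter of Edn1 is shown because this gene had its highest level in EC-like cells. The window holds 250 bases before and 50 bases after the RefSeq start on GRCm38.p6, chr13:42301226-42301525, plus strand. The capitals mark a GATA-type motif, AGATAA, found on the opposite strand as TTATCT, and an AP-1-type motif, TGACTAA. They begin at bases 9 and 37 counted from this RefSeq start, and other starts of the gene were not examined.
Edn1: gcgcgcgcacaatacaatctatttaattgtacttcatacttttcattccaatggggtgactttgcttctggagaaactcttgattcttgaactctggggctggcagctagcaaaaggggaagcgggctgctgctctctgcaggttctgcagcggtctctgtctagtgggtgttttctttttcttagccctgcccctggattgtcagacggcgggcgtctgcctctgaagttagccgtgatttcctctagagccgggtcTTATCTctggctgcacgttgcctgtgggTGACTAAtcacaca
Both strands were searched and the motifs did not overlap. Of 32851 promoter windows of this length, 11.2% held AGATAA and 2.35% held TGACTAA, so the matches are descriptions only.

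Within EC-like cells, Edn1 differed between clusters of the same library. In the cluster led by Vwf and Bmx it stood at 166 CPM in old 3 and 554 CPM in old 4. In the cluster led by Gpihbp1, Fabp4 and Kdr, genes of capillary endothelium, it stood at 13.4 and 50.9 CPM in the same 2 libraries. The Gpihbp1 cluster was therefore the lower one in both libraries that held at least 10 of its cells. In a finer clustering, a group of EC-like cells that also carried Acta2, Tagln and Myh11 RNA had 618 CPM in old 3 and 747 CPM in old 4, the highest of any EC-like group there.

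Edn1 was also counted outside EC-like cells. In FB-like cells it was 125 and 335 CPM in the young libraries and 235, 98.9, 99.1 and 20.6 CPM in old 1 to old 4, with a log2 fold change of -0.72 ± 1.06 (SE, adjusted p = 0.961, edgeR). The groups overlapped. Lymphatic EC-like cells had 213, 54.8 and 184 CPM in old 1, old 3 and old 4. Airway epithelial-like cells of old 1 had 259 CPM, against 0 to 38.7 CPM in the other libraries. Barcodes under 100 UMIs, which hold mostly RNA from outside intact cells, carried 274 CPM of Edn1 in old 1 and 14.2 to 26.2 CPM elsewhere. The airway epithelial-like, FB-like and lymphatic EC-like values of old 1 were thus no higher than the background of old 1. In the other libraries the FB-like and lymphatic EC-like values lay above the background of their own library. The fold change in airway epithelial-like cells, 1.00 ± 1.99 (SE, adjusted p = 0.938, edgeR), rested on that library: leaving out old 1 turned it to -1.07.

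**Figure D2:**
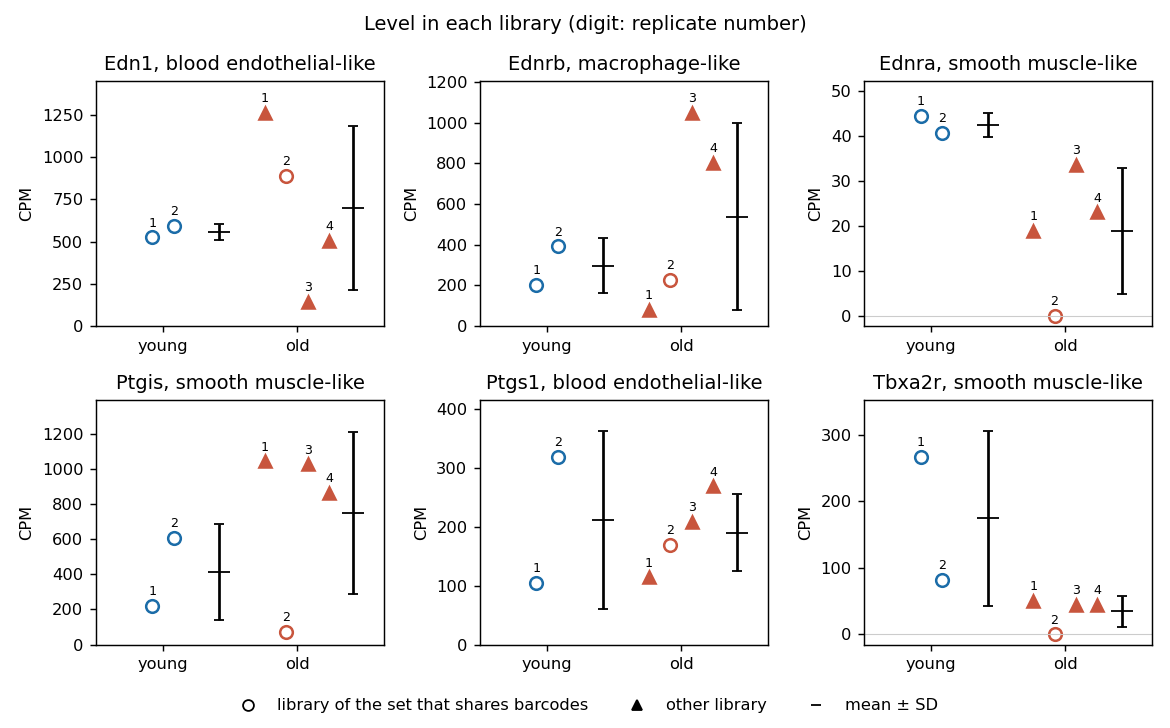
CPM in each library for 6 pairs of a gene and a cell class, young (blue) and old (red), with the mean ± SD beside each group; open circles are the 3 libraries that share barcodes. The old values lie on both sides of the young ones for Edn1 and Ednrb, and below both young values for Ednra (40.7 and 44.5 CPM) and Tbxa2r (81.4 and 267 CPM).

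The 3 genes whose profile over 51 library-by-class sums was most like that of Edn1 were Procr (Pearson r = 0.84), Ramp2 (0.83) and Ecscr (0.82), among 10655 genes with a mean of at least 10 CPM. Procr encodes the endothelial protein C receptor and Ramp2 a partner of the adrenomedullin receptor. The sums share libraries and depth, so these are descriptions.

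Edn3, the ligand with a preference for receptor B, was almost absent. It had no UMI in EC-like cells of either age. This allowed up to 29.7 CPM in the 100988 young EC-like UMIs and up to 0.531 CPM in the 5654633 old ones (3 counts over the group; counting error only). The only Edn3 UMIs in named classes with at least 10 cells in a library were 7 in B-like cells of old 3, each in another cell. Barcodes under 100 UMIs held 15 and 14 Edn3 UMIs in young 1 and young 2 and 0 to 6 in the old libraries, 2.9 and 3.8 CPM against at most 1.2 CPM. Ednra had the same order in these barcodes, at 42.1 and 18.8 CPM in young 1 and young 2 and 6.6 to 13.8 CPM in the old libraries. The other genes of the axis overlapped between ages there. The share of all genes with this order is not given here.

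Ece1 encodes the enzyme that cuts the endothelin precursors. In EC-like cells it was 770.1 and 912 CPM in the young libraries and 905, 706, 1034 and 850.1 CPM in old 1 to old 4. The groups overlapped, with a log2 fold change of 0.10 ± 0.47 (SE, adjusted p = 0.997, edgeR). The counting interval of the pooled ratio of old to young, 0.924 to 1.44 around 1.15, covers counting error only and not the spread between mice. Lymphatic EC-like cells had 701, 824 and 658 CPM in old 1, old 3 and old 4. The old 3 value lay within the range of blood EC-like cells and the other two below it. The Gpihbp1 cluster was lower, at 332 and 285 CPM in old 3 and old 4, beside 1171 and 903 CPM in the Vwf cluster. Other classes had less: 126 to 202 CPM in airway epithelial-like, 0 to 138 CPM in FB-like and 38.0 to 81.4 CPM in SMC-like cells.

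Ednra encodes receptor A, the receptor of contraction. In SMC-like cells it was 44.5 and 40.7 CPM in the young libraries and 19.0, 0, 33.6 and 23.0 CPM in old 1 to old 4. All 4 old values lay below both young ones, but each young value was a single UMI. Of the 7302 genes tested in SMC-like cells, 8.74% had every old library below every young one, or 11.9% of 6785 genes without old 2. The log2 fold change was -0.36 ± 1.17 (SE, adjusted p = 0.994, edgeR), or -0.38 ± 1.00 (SE, adjusted p = 0.955) without old 2. Pooled, old SMC-like cells held 718 UMIs and young ones 2, a pooled ratio of old to young of 0.594 with a counting interval of 0.164 to 4.91, and 0.594 also without old 2. Barcodes under 100 UMIs held 42.1 CPM of Ednra in young 1, close to the level of its SMC-like cells, and 6.6 to 18.8 CPM in the other libraries.

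In FB-like cells Ednra was 15.9, 9.9, 24.7 and 28.2 CPM in old 1 to old 4, with no UMI in either young library. The young FB-like cells held 100920 UMIs, which allowed up to 29.7 CPM, so a difference was not detectable at this depth. Within the Lum cluster, which held nearly all young FB-like cells, Ednra was 15.9, 5.3, 76.2 and 73.0 CPM in old 1 to old 4, again with no young UMI. Of the 6740 genes tested in FB-like cells, 16.8% had every old library above every young one. In the deep libraries, an FB-like subcluster was led by Col23a1, Aqp1, Hhip, Col15a1 and the smooth muscle marker Mylk. It had the highest Ednra of the FB-like subclusters there, with 130 CPM in old 3 and 284 CPM in old 4. The next highest values in these libraries were 42.8 CPM in old 3 and 74.2 CPM in old 4. The latter belonged to a subcluster that also carried Acta2, Myh11 and Tagln RNA. EC-like cells had 0 to 5.4 CPM.

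Ednrb encodes receptor B. Its highest levels were not in EC-like but in MΦ-like cells, with 200.01 and 391 CPM in the young libraries and 77.4, 226, 1046 and 801 CPM in old 1 to old 4. Old 3 and old 4 were the high ones, and old 1 lay below both young libraries. The log2 fold change was 0.69 ± 0.92 (SE, adjusted p = 0.873, edgeR), and it turned to -0.30 when the set of barcode-sharing libraries was a covariate. Thinned to 500 UMIs, a mean of 16.9% of MΦ-like cells held an Ednrb UMI (35.3% with all UMIs), against 0.188% of B-like cells (0.339%).

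The level of Ednrb differed between MΦ-like clusters. In the cluster led by Ccl8, Mrc1, F13a1, Cd209f, Folr2 and C1q genes it was 1162 CPM in old 3 and 881 CPM in old 4. In the cluster led by Prg4, Slpi, Alox15 and Saa3 it was 623 and 604 CPM in the young libraries and 652 CPM in old 2. In the cluster led by Cxcl2, Ccl4 and class II antigen presentation genes it was 148 CPM in young 1 and 0 to 25.3 CPM in the other 5 libraries. The 3 libraries that held the Prg4 cluster differed little within it, by 604 to 652 CPM, and included both ages. The Mrc1 cluster held at least 10 cells in old 3 and old 4 alone, so its level has no young value beside it, and the difference of the whole class between ages was not separable from which clusters each library held.

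**Figure D3:**
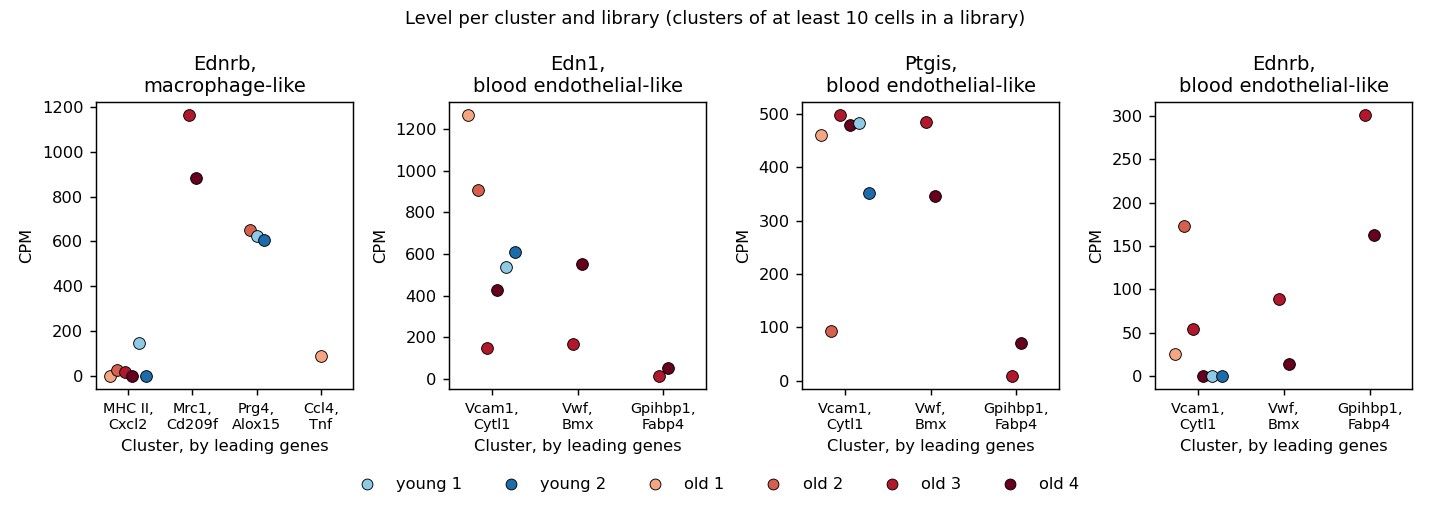
CPM of Ednrb in 4 MΦ-like clusters and of Edn1, Ptgis and Ednrb in 3 EC-like clusters, 1 point per library with at least 10 cells, coloured by library; clusters are named by leading genes. Ednrb lies at 881 and 1162 CPM in the Mrc1 cluster and 604 to 652 CPM in the Prg4 cluster. In EC-like cells of old 3 and old 4 the Gpihbp1 cluster is lower than the Vwf cluster for Edn1 and Ptgis and higher for Ednrb.

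In EC-like cells Ednrb was 0 and 22.8 CPM in the young libraries, the latter 1 UMI, and 25.4, 169, 122 and 27.1 CPM in old 1 to old 4. All 4 old values lay above both young ones. Of the 5857 genes tested in EC-like cells, 12% had every old library above every young one. The log2 fold change, 2.98 ± 1.83 (SE, adjusted p = 0.897, edgeR), did not pass the test. It was 1.79 without young 1 and 9.51 without young 2, which left a young library with no UMI, and the pooled ratio of 7.79 had a counting interval of 1.39 to 308. Within old 3 and old 4 the Gpihbp1 cluster had 301 and 163 CPM, beside 89.3 and 13.9 CPM in the Vwf cluster, the reverse of the order of Edn1. The Gpihbp1 cluster had 175 cells in old 3 and 27 in old 4 and under 10 in each young library. In the finer clustering, the leading genes of another EC-like group included Ccl2, Rgs16 and Prox1, the last a marker of the lymphatic list. That group had 822 CPM of Ednrb in old 2, from 12 UMIs in 20 cells, and 70.2 CPM in old 1. A group led by Ntrk2 and Egr3 had 96.9 CPM in old 2, also from 12 UMIs.

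Lymphatic EC-like cells, named from Prox1, Mmrn1, Ccl21a and Flt4, had 213, 548 and 272 CPM of Ednrb in old 1, old 3 and old 4, and the young libraries held at most 1 such cell. SMC-like cells had 0 to 19.0 CPM and FB-like cells 0 to 5.3 CPM. The genes most like Ednrb over the 51 sums were Stard8 (r = 0.83), Lyve1 (0.82) and Sh3tc1 (0.81). Lyve1 encodes a hyaluronan receptor of lymphatic endothelium that some tissue macrophages also carry.

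Ptgis encodes prostacyclin synthase, the last step to prostacyclin. Its mean CPM over libraries was highest in SMC-like cells. Levels there were 223 and 610.2 CPM in the young libraries, from 5 and 15 UMIs, and 1045, 70.8, 1028 and 866 CPM in old 1 to old 4. Old 1, old 3 and old 4 lay above both young libraries, and old 2, with 1 UMI, lay below. The means were 416 ± 274 CPM (SD, n = 2) in young and 752 ± 462 CPM (SD, n = 4) in old, with a log2 fold change of 1.30 ± 0.95 (SE, adjusted p = 0.823, edgeR). Without old 2 the old mean was 979.6 ± 99.0 CPM (SD, n = 3) and the log2 fold change 1.60 ± 0.67 (SE, unadjusted p = 0.0285, adjusted p = 0.58). Leaving out each library in turn gave 0.73 (without young 1) to 2.28 (without young 2). The sign turned, to -2.85, when the set of barcode-sharing libraries was a covariate. That fit compares ages only between old 2 and the young libraries, because the other libraries were all old. Old 2 had 1 Ptgis UMI in 11 cells that went against their label, so that fit cannot decide the direction in smooth muscle. The median log2 fold change of all genes tested in SMC-like cells was 0.49, so Ptgis stood 0.81 above that shift in the fit of all libraries. Within cluster 13, the 1 SMC-like cluster that held young cells in number, Ptgis was 202 and 627 CPM in young 1 and young 2 and 1029, 70.8, 877 and 976 CPM in old 1 to old 4, again with old 1, old 3 and old 4 above both young libraries. The share of all genes with this order is not given here. Without old 2, 69.1% of all genes tested in SMC-like cells had a log2 fold change above 0.

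Mesothelial-like cells, the lining of the pleura, came next, at 466 CPM in young 1 and 631, 280.5, 661 and 547 CPM in old 1 to old 4. EC-like cells had 473 and 342 CPM in the young and 460.1, 98.8, 408 and 327 CPM in the old libraries, with a log2 fold change of -0.29 ± 0.57 (SE, adjusted p = 0.966, edgeR). FB-like cells had 313 and 191 CPM in the young and 341, 178, 377 and 396 CPM in the old, with a log2 fold change of 0.30 ± 0.50 (SE, adjusted p = 0.970, edgeR). Old 2 was the lowest library in all 4 of these classes. The ranges of these classes overlapped one another. In young 1 and old 2, SMC-like cells had the lowest Ptgis level of these 4 classes, and in the other libraries the highest of those given.

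Ptgis was low in the Gpihbp1 cluster, at 8.9 and 71.3 CPM in old 3 and old 4, beside 485 and 347 CPM in the Vwf cluster. Lymphatic EC-like cells had 11.4 to 31.6 CPM. Barcodes under 100 UMIs held 42.0 to 200 CPM of Ptgis, and MΦ-like cells held 6.7 to 130 CPM. In old 1, young 1, old 3 and old 4 the MΦ-like value lay below the background of its own library, whereas in young 2 it was 130 CPM, from 8 UMIs, beside 44.4 CPM, and in old 2 it was 61.9 CPM beside 42.0 CPM. The genes most like Ptgis over the sums included Mgp (r = 0.92) and Htra1 (0.90). Mgp encodes an inhibitor of vessel calcification and Htra1 a secreted protease.

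Ptgs1 encodes cyclooxygenase-1, the constitutive enzyme. In EC-like cells it was 105 and 319 CPM in the young libraries and 114, 169, 209 and 269 CPM in old 1 to old 4, so that the old values all lay between the young ones, with a log2 fold change of -0.09 ± 0.53 (SE, adjusted p = 0.997, edgeR). Lymphatic EC-like cells had 122 to 348 CPM, mesothelial-like cells 94.4 to 279 CPM, FB-like cells 81.9 to 287 CPM and MΦ-like cells 20.8 to 152 CPM, with overlapping ranges. In FB-like cells the log2 fold change was -0.57 ± 0.53 (SE, adjusted p = 0.906, edgeR). SMC-like cells had 0 to 1.2 CPM in every library but old 2, where 2 UMIs gave 142 CPM. The young SMC-like cells had no Ptgs1 UMI, which allowed up to 63.8 CPM.

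Ptgs2 encodes cyclooxygenase-2, the inducible enzyme, and varied widely between libraries of the same class. In FB-like cells it was 1100.1 and 1433 CPM in the young libraries and 399, 1607, 47.8 and 341 CPM in old 1 to old 4. Old 2, one of the 3 barcode-sharing libraries, was above both young libraries, and the other 3 old libraries were below them. Within the Lum cluster the values were 1180 and 1433 CPM in the young and 399, 1686, 34.1 and 295 CPM in the old libraries, with the same order. In EC-like cells Ptgs2 was 543 and 502 CPM in the young and 278, 911, 33.4 and 26.1 CPM in the old libraries. In MΦ-like cells it was 148 and 97.7 CPM in the young and 38.7, 147, 2.2 and 7.0 CPM in the old. The order of the libraries was thus similar in these classes.

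**Figure D4:**
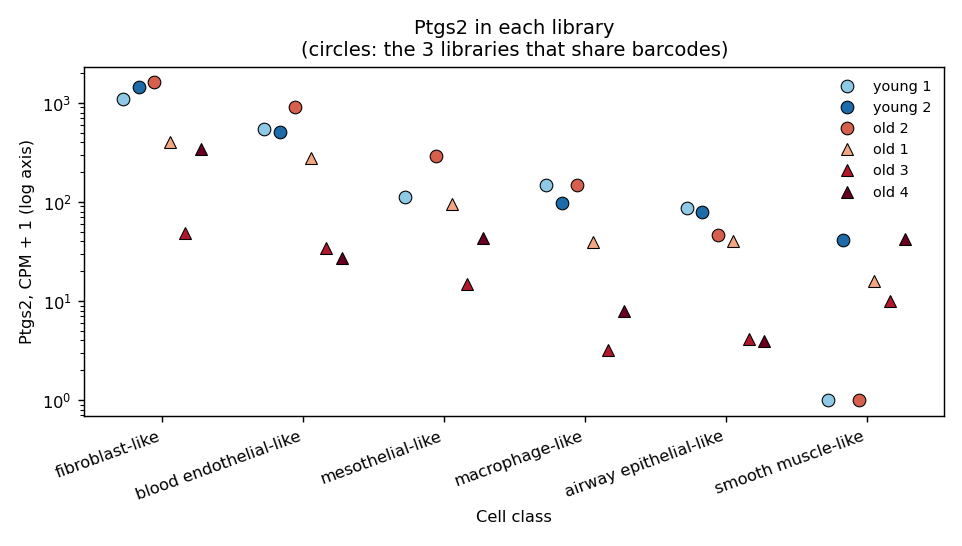
Ptgs2 (CPM + 1, log axis) in 6 cell classes, 1 point per library; circles are the 3 libraries that share barcodes and triangles the others. In FB-like, EC-like and MΦ-like cells young 1, young 2 and old 2 lie above old 1, old 3 and old 4, and in FB-like cells the lowest library, old 3, has 47.8 CPM.

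The log2 fold changes of Ptgs2 were -0.89 ± 1.37 in FB-like cells (SE, adjusted p = 0.967, edgeR), -0.65 ± 1.54 in EC-like cells (SE, adjusted p = 0.976) and -1.43 ± 1.46 in MΦ-like cells (SE, adjusted p = 0.836). None passed the test, and each turned positive when the set of barcode-sharing libraries was a covariate, to 0.61, 0.97 and 0.28. Within that set, the 1 old library was higher than both young ones in FB-like and EC-like cells and between them in MΦ-like cells. The other libraries were all old and gave no comparison of ages. Without old 2 the log2 fold changes deepened to -2.12 (adjusted p = 0.563), -2.03 (adjusted p = 0.693) and -3.55 (adjusted p = 0.355).

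Airway epithelial-like cells were the class in which all 4 old libraries lay below both young ones, with 38.9, 45.4, 3.2 and 2.9 CPM in old 1 to old 4 against 86.9 and 78.0 CPM in young 1 and young 2. Of the 8249 genes tested there, 6.73% had this order. In young 1, young 2 and old 2, 137 of 256, 218 of 414 and 200 of 523 airway epithelial-like cells shared a barcode with another library. The order, the test and the counting interval take these libraries as independent. Whether they are independent in this class was not tested. The log2 fold change was -1.85 ± 1.04 (SE, adjusted p = 0.778, edgeR). The pooled ratio was 0.290 with a counting interval of 0.216 to 0.387, which covers counting error only. Barcodes under 100 UMIs held 114.7, 47.3, 12.2 and 12.3 CPM of Ptgs2 in old 1 to old 4, above the airway value of each library. In young 1 and young 2 they held 27.2 and 43.6 CPM, below the airway values. Old 3 had 21 airway epithelial-like cells. SMC-like cells had little Ptgs2, at most 40.9 CPM. B-like cells held 4 Ptgs2 UMIs in the old libraries and none in the young, an order that 19.3% of the genes tested there shared.

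The early-response genes Fos, Fosb, Jun, Junb, Egr1, Atf3, Nr4a1 and Ier2, which cells switch on quickly under stress or stimulation, were summed beside Ptgs2 after its values had been seen. In FB-like cells their summed level was 13352 and 12280 CPM in the young libraries, and 9415, 13620.5, 1762 and 7856 CPM in old 1 to old 4. Old 2 was the highest and old 3 the lowest for both this sum and Ptgs2 in FB-like cells. In EC-like cells the sum was 21932 and 19179 CPM in the young and 15418, 16674, 1941 and 6462 CPM in the old libraries. The orders of the sum and of Ptgs2 parted in other classes. In MΦ-like cells the sum was 8050 CPM in old 4 and 6223 CPM in old 2, where Ptgs2 was 7.0 and 147 CPM, and 9195 CPM in old 1 against 7821 CPM in young 1, where Ptgs2 was 38.7 and 148 CPM. In airway epithelial-like cells old 4 and old 2 had sums of 4735 and 4917 CPM, where Ptgs2 was 2.9 and 45.4 CPM. The part of this response in the Ptgs2 levels was not tested. The Ptgs2 locus also has annotated antisense genes, and since the strand setting of the counting is not given in the sources used here, reads of both strands may not be told apart.

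The promoter of Ptgs2 is shown because the level of this gene varied so widely between libraries. The window, chr1:150099781-150100080 on GRCm38.p6, plus strand, spans 250 bases before to 50 bases after the RefSeq start. The capitals mark an E-box, CACGTG, at base 17 and an A/T-rich TTAAAA at base 40. Both are counted from this RefSeq start, and other starts of the gene were not examined.
Ptgs2: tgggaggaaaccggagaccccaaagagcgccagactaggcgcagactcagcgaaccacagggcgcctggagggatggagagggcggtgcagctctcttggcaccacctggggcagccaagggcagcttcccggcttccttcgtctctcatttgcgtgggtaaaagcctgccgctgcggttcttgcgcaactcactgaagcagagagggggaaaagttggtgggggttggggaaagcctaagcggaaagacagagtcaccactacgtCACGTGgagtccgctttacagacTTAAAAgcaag
Of all windows, 7.15% held CACGTG and 19.2% held TTAAAA on either strand, and the matches did not overlap.

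Ptgir encodes the prostacyclin receptor. It was low in every class of the wall. FB-like cells had 2.6, 4.9, 11.3 and 7.6 CPM in old 1 to old 4, from 84 UMIs in all, and none in the young libraries, whose 100920 UMIs allowed up to 29.7 CPM. SMC-like cells had 0 to 2.1 CPM, with 30 UMIs in 28436611, and no young UMI in 47051, which allowed up to 63.8 CPM. MΦ-like cells had 0 to 17.9 CPM. Within FB-like cells of old 3, the subcluster led by the haemoglobin genes Hbb-bt and Hbb-bs and by Igfbp3 had 20.5 CPM, and the one led by Dpp4 and Sema3c 3.0 CPM. Ptgir passed the filter on low values in no class and was not tested.

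Tbxa2r encodes the thromboxane receptor, which drives contraction. In SMC-like cells it was 267 and 81.4 CPM in the young libraries, from 6 and 2 UMIs, and 50.7, 0, 44.3 and 43.8 CPM in old 1 to old 4. All 4 old libraries lay below both young ones, beside 8.74% of all genes tested there (11.9% without old 2). The means were 174 ± 131 CPM (SD, n = 2) and 34.7 ± 23.3 CPM (SD, n = 4), and without old 2 the old mean was 46.3 ± 3.8 CPM (SD, n = 3). The log2 fold change was -1.54 ± 0.84 (SE, unadjusted p = 0.065, adjusted p = 0.750, edgeR), and -1.53 ± 0.70 (SE, unadjusted p = 0.0429, adjusted p = 0.58) without old 2. It was -0.50 without young 1 and -2.13 without young 2. Relative to the shift of 0.49 of all genes in these cells it stood at -2.03. The pooled ratio of old to young was 0.259 with a counting interval of 0.131 to 0.601. Old 1, old 3 and old 4 thus agreed within 50.7 to 43.8 CPM, and the size of the difference rested on 8 young UMIs.

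Outside SMC-like cells, Tbxa2r was 30.5, 54.8 and 108 CPM in lymphatic EC-like cells of old 1, old 3 and old 4, and 4.9 to 47.8 CPM in FB-like cells. B-like cells had 0 to 26.1 CPM. EC-like cells had 0 to 3.7 CPM in the old libraries and 1 UMI in the young.

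Across all classes fitted, 24 pairs of a gene and a class passed the filter on low values, and none passed an adjusted p of 0.05. Of the 10 genes, 4 passed that filter in airway epithelial-like, 6 in EC-like, 5 in FB-like, 5 in MΦ-like and 4 in SMC-like cells, and 0 in B-like cells. Calls were also rare over all genes: 0% of the genes tested in EC-like, MΦ-like, airway epithelial-like and B-like cells, 0.0445% in FB-like cells and 0.123% in SMC-like cells, where 9 of 7302 genes were called. Without old 2, edgeR called 0 of 6785 genes in SMC-like cells, with 565 at an unadjusted p under 0.05, and with old 2 DESeq2 called 0. The 3 genes called in FB-like cells were Mmp3 (higher in old), Ttll12 and Itm2a (both lower), named here after their values were seen. In EC-like cells edgeR called 0 of 5857 genes, with 349 at an unadjusted p under 0.05, and DESeq2 called 1. In MΦ-like cells edgeR called 0 of 5816 genes, with 306 at an unadjusted p under 0.05, and DESeq2 called 5. In airway epithelial-like cells both tools called 0 of 8249, with 506 unadjusted in edgeR, and in B-like cells both called 0 of 2910, with 187 unadjusted.

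**Figure D5:**
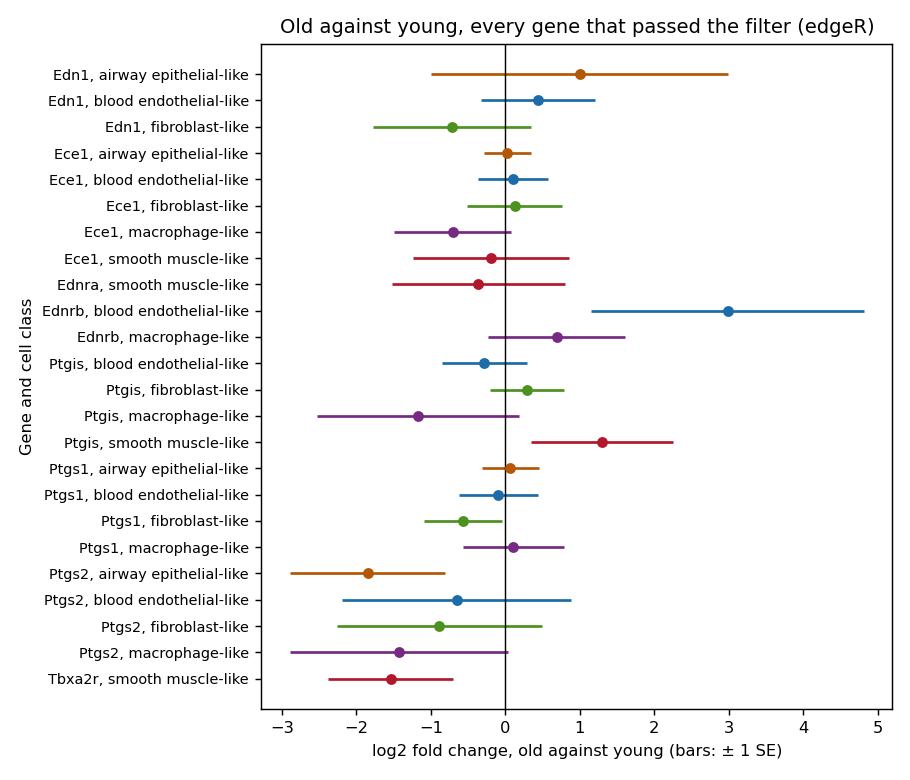
Log2 fold change of old against young (points) with ± 1 SE (bars) for the 24 pairs of a gene and a cell class that passed the filter on low values, coloured by class. The values run from -1.85 (Ptgs2, airway epithelial-like) to 2.98 (Ednrb, EC-like), and none passed an adjusted p of 0.05.

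The genes around the axis were read from 5 fixed lists, and no gene of any list passed the adjusted p in any class. Of the other endothelin genes, only Mme, an endopeptidase that degrades endothelin, passed the filter on low values, in airway epithelial-like cells (log2 fold change 0.79 ± 0.43, SE, adjusted p = 0.772, edgeR).

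Among the 16 genes of other prostanoid synthesis and clearance, 6 were tested in EC-like cells, where 2 had a log2 fold change above 0 beside 60% of all genes, and the list median was -0.39, beside 0.18 over all genes. The most abundant were Slco2a1, the prostaglandin transporter, and Anxa1, an inhibitor of phospholipase A2. Anxa1 was 502 and 210.0 CPM in the young EC-like cells and 66.1 to 120.0 CPM in the old, with no overlap (log2 fold change -1.93 ± 0.50, SE, unadjusted p = 0.0018, adjusted p = 0.831, edgeR; 7.92% of all genes had this order). The young cells came nearly all from the Vcam1 cluster, as above. In MΦ-like cells 8 of the list were tested, 6 of them above 0 (54.1% of all genes). The most abundant were Alox5ap, which is in the list but serves leukotriene synthesis, and Tbxas1, thromboxane synthase. Tbxas1 stood at 97.7 to 165 CPM in young and 79.0 to 465 CPM in old. Hpgd, which degrades prostaglandins, and Hpgds, which makes prostaglandin D2, had log2 fold changes of 2.23 ± 0.79 and 2.52 ± 0.94 in MΦ-like cells (SE, adjusted p = 0.8 for each, edgeR). Each rested on 10 young UMIs. Hpgd stood at 17.4 to 32.6 CPM in young and 38.4 to 216 CPM in old. Hpgds stood at 16.3 to 19.6 CPM in young and 21.3 to 216 CPM in old. The share of all genes with this order in MΦ-like cells is not given here. Both genes were picked after their values were seen, and 306 of 5816 genes there had an unadjusted p under 0.05 (edgeR). Other list genes under that cut were Rock2 and Gnas in B-like cells and Anxa1, Rgs3 and Akap12 in EC-like cells. Adcy7 in FB-like and Gna12 in SMC-like cells were under it too. The Mrc1 cluster of MΦ-like cells held 611 old and 4 young cells. In FB-like and SMC-like cells the most abundant were Anxa1 and Ptges3, and in FB-like cells 2 of 8 had a log2 fold change above 0 (59.9% of all genes). In airway epithelial-like cells they were Anxa1 and Ptges3 too, with 5 of 10 above 0 (51.7% of all genes), and in B-like cells Ptges3 and Akr1b3.

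Of the 7 other prostanoid receptors, Ptger4, a prostaglandin E2 receptor that raises cyclic AMP, was tested in EC-like cells (log2 fold change 0.23 ± 1.07, SE), MΦ-like cells (0.91 ± 0.67, SE) and FB-like cells (1.26 ± 1.49, SE), and Ptgfr, the prostaglandin F2α receptor, in FB-like cells (0.90 ± 0.93, SE). Their adjusted p ran from 0.8 to 0.997. None of the list passed the filter in SMC-like cells.

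Of the 18 genes of coupling through Gq, G12 and calcium, the path of endothelin and thromboxane receptors to contraction, 16 were tested in SMC-like cells, and 13 had a log2 fold change above 0, beside 68.7% of all genes, and the list median was 0.44 and that of all genes 0.49. Without old 2, 12 of 15 were above 0 beside 69.1% of all genes, with medians of 0.58 and 0.50. The most abundant were Plcb4, a phospholipase C, at 534 to 814 CPM in young and 70.8 to 1321 CPM in old (380 CPM or more without old 2), and Rock1, a kinase that promotes contraction. In EC-like cells 14 were tested and 10 were above 0 beside 60% of all genes, with a list median of 0.20 beside 0.18, and the most abundant were Plcb4 and Itpr1, a calcium channel of internal stores. Rhoa led in B-like, FB-like and MΦ-like cells, followed by Rock1, Rock2 and Gnaq in turn, and Itpr1 and Rhoa led in airway epithelial-like cells.

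Of the 18 genes of coupling through Gs and cyclic AMP, the path of the prostacyclin receptor, 15 were tested in SMC-like cells, and 11 were above 0 beside 68.7% of all genes, with a median of 0.29 beside 0.49. Without old 2 the count was the same, with a median of 0.36 beside 0.50. Gnas, the stimulatory G protein, was the most abundant there, at 732 and 846 CPM in young and 496 to 1385 CPM in old (log2 fold change 0.52 ± 0.91, SE, adjusted p = 0.980, edgeR, and 0.73 ± 0.62, SE, adjusted p = 0.746 without old 2), and Pde3a, which degrades cyclic AMP, came next. Pde3a led in EC-like cells, at 1050.2 and 1756 CPM in young and 345 to 2544 CPM in old (0.14 ± 0.67, SE, adjusted p = 0.997). Gnas was among the top pair of this list in every class fitted, with Akap12 in FB-like, Pde4b in MΦ-like and B-like, and Pde4d in airway epithelial-like cells.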

How the data were processed

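Single cell RNA sequencing of the main PAs was analysed in 2 young and 4 old libraries, and the study's remaining young sample was not used here. The authors prepared libraries with the 10x Genomics 3′ v3.1 kit, trimmed reads with Cutadapt, and mapped and counted them with STAR in its STARsolo mode on GRCm38.p6. The authors deposited raw UMI counts per gene and barcode for every barcode, with no normalization. The submitters' processing notes name cutadapt, STAR and STARsolo without versions. Most versioned gene identifiers of the files (all but 35 of 53647) were absent from the reference at hand, so genes go by the symbols in the files, and the promoters come from RefSeq on GRCm38.p6, where 9 of the 10 genes had an entry.

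Cells were filtered as stated above the results. Doublets (0.963% to 3.03% of cells) were called with scrublet library by library, by its own cut or, where that called too few cells, by the expected share, and were removed. Cells were clustered with scanpy 1.11.5 (2000 variable genes, 40 components, 15 neighbours, Leiden resolution 1), without the 10 genes and the pathway lists. A cluster was named where over 40% of a list's markers were raised, a threshold set after the clusters were seen; 476 cells stayed unnamed. The 10 genes, gene lists and markers were chosen with earlier results of these data known, and list counts are descriptions.

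Counts were summed per library and class. A class was fitted where both young and at least 2 old libraries held at least 10 cells, with edgeR 4.0.16 (quasi-likelihood F test, two-sided, TMM, robust, R 4.3.3), on genes seen in more than 5% of cells of 3 or more libraries, and p was adjusted by Benjamini-Hochberg over all genes tested in the class. The SE given with edgeR values is the absolute log2 fold change divided by the square root of the F statistic. It is not an output of the fit. All 10 genes were described. For the genes most like Edn1, Ednra, Ednrb and Ptgis, Pearson's r of log2(CPM + 10) was used over sums of at least 10 cells and 20000 UMIs and genes with a mean of at least 10 CPM, which Ednra did not reach. From the lists, genes past the adjusted p and, per list and class, the top pair by mean CPM were to be named; Hpgd and Hpgds were named after their values were seen. Pooled ratios carry exact 95% binomial intervals, which like the limit of 3 counts for a count of 0 cover counting error only. The scripts were tested on simulated data. Alternatives were another scaling (RLE, library size), no gene filter, DESeq2 1.42.0, stricter cells, doublets kept, cells typed one by one, thinning to 500 UMIs, the barcode-sharing set or sex as a covariate, each library left out and, added after seeing the data, cells with shared barcodes left out.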

Additional observations from a re-analysis of the deposited data

Results flagged for a closer look

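In 43 groups of old libraries with any UMI, 7 had a value that stood apart from the others by Dixon's criterion. Chance flags about 1 in 20 such groups, and most of these values are a few UMIs. In airway epithelial-like cells the highest of 4 old libraries stood apart for Edn1 (259 CPM, old 1), Ednrb (31.5 CPM, old 3) and Ptgis (40.5 CPM, old 4). The background of the same libraries, in barcodes under 100 UMIs, was 274 CPM for Edn1 in old 1, 68.7 CPM for Ednrb in old 3 and 166 CPM for Ptgis in old 4. In EC-like cells the highest was Ptgir in old 2 at 7.06 CPM, which was 1 UMI.

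In SMC-like cells 3 values of old 2 stood apart: Edn1 at 70.8 CPM (1 UMI), Ptgs1 at 142 CPM (2 UMIs) and Tbxa2r at 0 CPM. These are the 11 cells whose airway epithelial markers summed to 234586 CPM, in a smooth muscle sum of few UMIs.

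The order of old and young libraries differed between classes for 2 genes, and the differences were not tested. Ednra lay above the young libraries in every old library in FB-like cells (mean 19.7 CPM against no UMI) and below them in SMC-like cells (18.9 CPM against 42.6 CPM, the latter from 2 UMIs). The young FB-like cells allowed up to 29.7 CPM of Ednra, so a difference of the whole class was not detectable there. Ptgs2 lay above in B-like cells (3.26 CPM against no UMI, from 4 UMIs in 3 old libraries) and below in airway epithelial-like cells (22.6 CPM against 82.4 CPM). The young B-like cells allowed up to 2.68 CPM, beside 1.31 CPM pooled over the old. Of all genes tested, 16.8% in FB-like and 19.3% in B-like cells had every old library above every young one. The reverse order held for 8.74% in SMC-like and 6.73% in airway epithelial-like cells.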

How the results depend on the processing

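Of 369 alternative values of the 24 log2 fold changes, 329 kept their direction and 0 had an adjusted p under 0.05. Under every alternative, 5 of the 24 kept it. The fit with the barcode-sharing set as a covariate compares ages only between old 2 and the young libraries, because the other libraries were all old. In SMC-like cells old 2 was the 11 cells that went against their label. With the barcode-sharing set as a covariate the sign turned for Ptgs2 in FB-like (0.61), EC-like (0.97) and MΦ-like cells (0.28), for Ece1 in airway (-0.0447), EC-like (-0.0806), FB-like (-0.34) and MΦ-like cells (0.18), for Ptgs1 in airway cells (-0.33), for Ptgis in FB-like (-0.39), MΦ-like (0.48) and SMC-like cells (-2.85) and for Ednrb in MΦ-like cells (-0.30). With sex as a covariate it turned for Edn1 in airway (-0.0736) and EC-like cells (-0.44) and Ptgs1 in EC-like cells (0.12). Sex was taken from the titles and the study, and old 1, entered as male, held 2395 Xist UMIs, an RNA of female cells. Of the Y-linked genes Ddx3y, Eif2s3y, Kdm5d and Uty it held 205, 2, 2 and 15 UMIs. Old 2, also entered as male, held 451, 202, 71 and 379, beside 164 Xist UMIs. The entry of old 1 may therefore be wrong, and the fits with sex as a covariate rest on it. Without the gene filter the sign turned for Ptgis (0.11) and Ptgs1 (0.25) in EC-like and Ece1 (0.42) and Ednra (0.23) in SMC-like cells. With cells typed one by one it turned for Ptgs1 in EC-like (0.42) and MΦ-like cells (-0.0411) and Ptgis in FB-like cells (-0.0507). In airway cells Ece1 turned when thinned (-0.26) or without shared-barcode cells (-0.20), and Ptgs1 with doublets kept (-0.0146) or without shared-barcode cells (-0.33). With the stricter cell filter Ptgs1 in MΦ-like cells turned (-0.0537). The cause was not tested.

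Leaving out each library in turn gave -0.0108 to 0.17 for Ece1 in airway, -0.035 to 0.28 in EC-like, -0.48 to 10.67 in FB-like and -0.58 to 0.39 in SMC-like cells, -1.07 to 1.63 for Edn1 in airway and -0.0736 to 0.87 in EC-like cells, -0.58 to 0.0312 for Ptgis in EC-like and -0.0746 to 1.02 in FB-like cells, and -0.23 to 0.35, -0.74 to 0.78 and -0.30 to 0.53 for Ptgs1 in airway, EC-like and MΦ-like cells. The value of 10.67 arose where the 1 young library left had no Ece1 UMI.

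The counts of genes called moved as follows. Without the gene filter they were 15 in B-like, 173 in airway, 7 in EC-like, 24 in FB-like, 39 in MΦ-like and 32 in SMC-like cells. DESeq2 called 1 in EC-like, 5 in MΦ-like and 0 in SMC-like cells. In FB-like cells 0 were called with the barcode set as a covariate, 18 with sex, 1 with cells typed one by one and 0 when thinned. In SMC-like cells 15 were called with library size only (where 55.1% of genes were higher in old, against 68.7%), 0 with the barcode set, 4 with sex, 0 with cells typed one by one and 5 when thinned. Thinning gave 1 in airway cells. Leaving out each library gave 0 to 67 in B-like cells (67 without old 2), 0 to 1 in FB-like and 0 to 9 in SMC-like cells. Of 349 alternative mean CPM values 1 moved by over 1 SD. Those that leave out 1 library could not have moved so far, because dropping 1 value shifts a mean by less than 1 SD. They therefore say nothing on how stable the levels are. With at least 1000 UMIs and 500 genes per cell, only airway and MΦ-like cells could be fitted. No paired analysis was possible because replicate numbers were given in accession order and pair no samples.

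Precision was limited by the young cells: 47051 SMC-like, 100988 EC-like and 100920 FB-like UMIs.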
